A study of Mus musculus with 3 samples.

Results

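Blood endothelial cells, which line arteries, capillaries and veins, were 160 of the 18540 cells that passed a filter in 2 libraries of CD45-negative cells sorted from mouse hind paws. A cell passed with at least 500 genes and 1000 unique molecular identifiers (UMIs, the count of captured RNA molecules) and with at most 10% of its UMIs from mitochondrial genes. Endothelial cells were chosen by their own UMI counts, when at least 4 of the 8 genes Pecam1, Cdh5, Emcn, Egfl7, Flt1, Kdr, Cldn5 and Esam had a UMI and when Prox1, which marks lymphatic endothelium, and Ptprc, which encodes CD45, had none. This gave 66 of 11172 passing cells at day 5 and 94 of 7368 at day 0. The day 5 library came from mice given serum of arthritic K/BxN mice by intraperitoneal injection, which transfers an antibody-driven joint inflammation, and the day 0 library is labelled as steady state. Paws had been freed of skin, muscles and tendons and digested with collagenase IV and DNase before the sort. The series holds 24485 passing cells in all, including a library of myeloid cells, sorted for CD45 and CD11b and against Ly6G, at day 9. There was 1 library per day, and the labels give no number, strain, sex or age of the mice. Day and library therefore cannot be told apart, no test was possible, and the 95% intervals given here cover counting error only.

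Endothelial cells differ along the vessel tree. Capillary cells of muscle, fat and connective tissue take up fatty acids with proteins such as Cd36, Fabp4 and Gpihbp1, while the cells of post-capillary venules carry P-selectin, E-selectin and the chemokine-binding receptor Ackr1, to which leukocytes attach on their way into inflamed tissue. When vessels grow, leading tip cells make factors such as apelin and angiopoietin 2, and the cells behind them divide.

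The endothelial share of passing cells was 0.591% (Clopper-Pearson interval 0.457 to 0.751%) at day 5 and 1.28% (1.03 to 1.56%) at day 0. The denominator is the sorted stromal suspension, so the share moves with every other cell type in the sort. The endothelial cells held 1037816 UMIs at day 5 and 887810 at day 0. Their median was 11927 UMIs (1816 to 68104) at day 5 and 7675 (1678 to 32234) at day 0, against 9299 and 9826.5 in all other passing cells. Endothelial cells were thus deeper than their neighbours at day 5 and shallower at day 0. No endothelial barcode was shared between both stromal libraries, among 32 shared barcodes in all. The cell with most UMIs held 6.56% of the endothelial UMIs at day 5 and 3.63% at day 0.

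The 8 genes that chose the cells are described here without a test. Their count per cell left a gap below the threshold, with 1 passing cell at day 5 and 3 at day 0 at exactly 3 genes, against 31 and 55 at 7 genes and 25 and 31 at all 8. The single endothelial cell at exactly 4 genes, at day 5, had 15244 UMIs and carried Pecam1, Egfl7, Flt1 and Esam. Just outside, the day 5 cell with 3 genes had 31363 UMIs and carried Emcn, Flt1 and Esam. The cells at day 0 with 3 genes had 3800, 1288 and 6638 UMIs, the first of them with 1 UMI of Prox1. At 4 or more genes, 5 cells at day 5 and 10 at day 0 were left out for Prox1, and 1 of those at day 5 also held Ptprc.

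**Figure D1:**
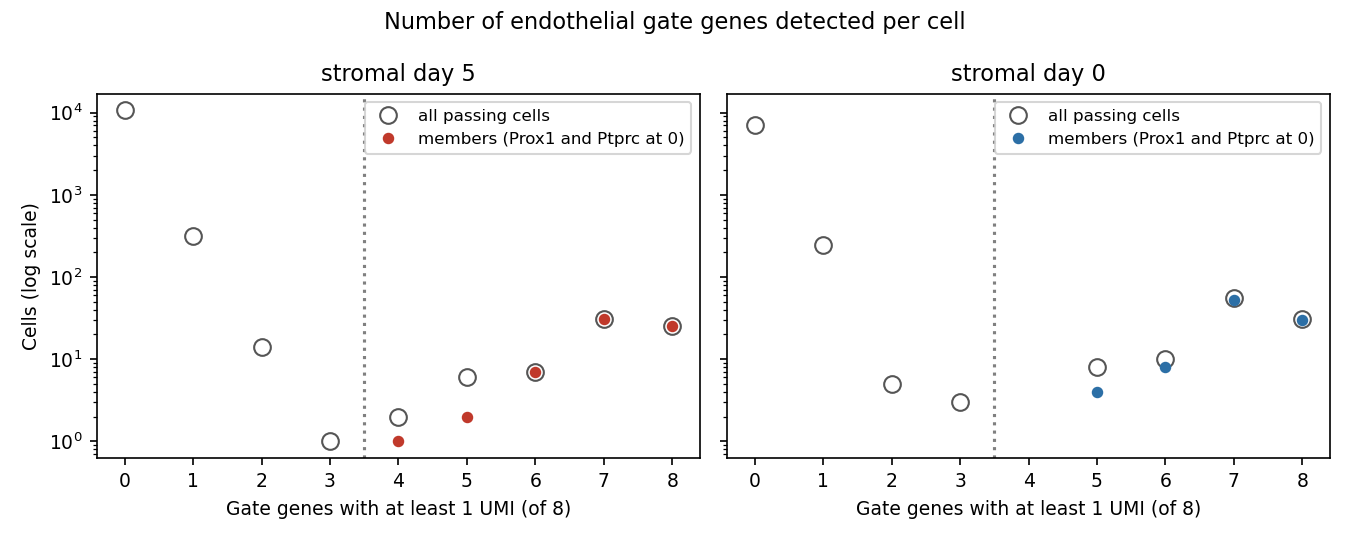
Number of passing cells (vertical axis, log scale) by how many of the 8 endothelial genes had at least 1 UMI (horizontal axis), for day 5 on the left and day 0 on the right. Open circles are all passing cells, filled circles those counted as endothelial, and the dotted line is the threshold of 4 genes. The cells fall into a large group with 0 to 2 genes and a small one with 4 to 8, with 1 cell at day 5 and 3 at day 0 between them at 3 genes.

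The genes outside the rule that led the cells are given as a description, since the rule chose the same cells. Among them the highest folds over all other passing cells (10 CPM added, where CPM is the UMIs of a gene per 1000000 UMIs) were those of the fatty acid carrier Fabp4, Ctla2a, the fenestral diaphragm protein Plvap, Cd93, Tspan13, the vascular endothelial phosphatase Ptprb and the adhesion receptor Adgrl4. These 7 and the 8 genes of the rule were the 15 genes leading by fold. Pecam1, the adhesion molecule CD31, had 885 CPM at day 5 and 1119.6 CPM at day 0. Cdh5, the VE-cadherin of adherens junctions, had 681 CPM at day 5 and 523 CPM at day 0, and Emcn, the sialomucin endomucin of capillaries and veins, had 504 CPM at day 5 and 690.5 CPM at day 0. Egfl7, a secreted endothelial factor, had 889 CPM at day 5 and 1247 CPM at day 0. Flt1 and Kdr, the VEGF receptors 1 and 2, were at 571 and 481 CPM at day 5, against 757 and 653 CPM at day 0. Cldn5, a claudin of tight junctions, was in 31 of 66 cells at day 5 and 44 of 94 at day 0, which makes it the least often detected of the 8, while Esam, a junctional adhesion molecule, was in 65 and 94.

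The window of 250 bases before the annotated start of Emcn is shown because it holds, on either strand, the letters AGGAAG that ETS factors, which control many endothelial genes, are known to bind. It lies at chr3:137340828-137341077 on the plus strand of GRCm38.p6 (RefSeq), reads 5′ to 3′ and has both matches in capitals, at 174 and 93 bases before the start.
Emcn: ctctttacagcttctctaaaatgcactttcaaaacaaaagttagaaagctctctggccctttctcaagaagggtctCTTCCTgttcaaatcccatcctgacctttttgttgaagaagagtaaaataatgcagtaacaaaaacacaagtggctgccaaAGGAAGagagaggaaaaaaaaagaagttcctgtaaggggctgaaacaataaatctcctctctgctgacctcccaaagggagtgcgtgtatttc
Of the 15 leading genes 8 had a window, and 5 of these held the letters (Adgrl4, Ctla2a, Egfl7, Emcn and Flt1), against 29.5% of all 32851 windows. A match is a description of letters, not a binding site.

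Some endothelial droplets also held fibroblast RNA. UMIs of 7 fibroblast genes (Col1a1, Col1a2, Col3a1, Dcn, Lum, Pdgfra and Mfap5) made up a share of UMIs above 25% of the median share of fibroblasts in 13 of 66 endothelial droplets at day 5 and 11 of 94 at day 0. These droplets are called mixed below. Their median was 19860 UMIs at day 5 and 21437 at day 0, against 8850 and 7088 in the remaining 53 and 83, and they held 31.3% and 27.0% of the endothelial UMIs. The split was clear at day 0, where the highest unmixed droplet had 0.124% and the lowest mixed one 1.27% fibroblast UMIs. It was closer at day 5, at 0.710% and 1.23%. The droplet with most UMIs was mixed on both days. Values without mixed droplets are given beside some of the results below.

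A second feature of the day 5 cells touches most results. Of 66 endothelial cells at day 5, 21 (31.8%, 20.9 to 44.4%) had UMIs of at least 3 of 12 cell cycle genes (Mki67, Top2a, Cdk1, Ccnb1, Ccnb2, Birc5, Pclaf, Rrm2, Mcm5, Pcna, Tyms and Cenpf). At day 0 there were 0 of 94, with an interval up to 3.85%. The 21 cells, called the cell-cycle subset here, had 12166 to 68104 UMIs (median 25000) and held 61.0% of the day 5 endothelial UMIs. The other 45 had a median of 6374. Among endothelial cells with at least 12000 UMIs, a line drawn after the data were seen, 21 of 33 at day 5 and 0 of 24 at day 0 belonged to the subset. With every cell thinned to 1000 UMIs, at least 1 of the 12 genes was seen in 12 cells (18.2%) at day 5 and 7 (7.45%) at day 0, and the 12 genes had 20 and 8 UMIs in all. Only 4 of the 21 were mixed droplets, and without mixed droplets the subset was 17 of 53 cells. In fibroblasts, taken as cells with at least 4 of the 7 fibroblast genes, none of the 8 endothelial genes and no Ptprc, the same criterion was met by 210 of 10675 cells (1.97%) at day 5 and 44 of 6919 (0.636%) at day 0. The fibroblasts that met it had medians of 21914 and 17458.5 UMIs, against 9288 and 9819 in all fibroblasts. Of the other 45 endothelial cells at day 5, 9 were mixed droplets, so comparisons that split off the subset also differ in fibroblast RNA. Dcn had 4247 CPM in the subset, 11627 CPM in the other day 5 cells and 4628 CPM at day 0. Col1a1 went the other way against day 0, at 313, 368 and 1353 CPM. Values with both the subset and the mixed droplets left out were not computed.

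**Figure D2:**
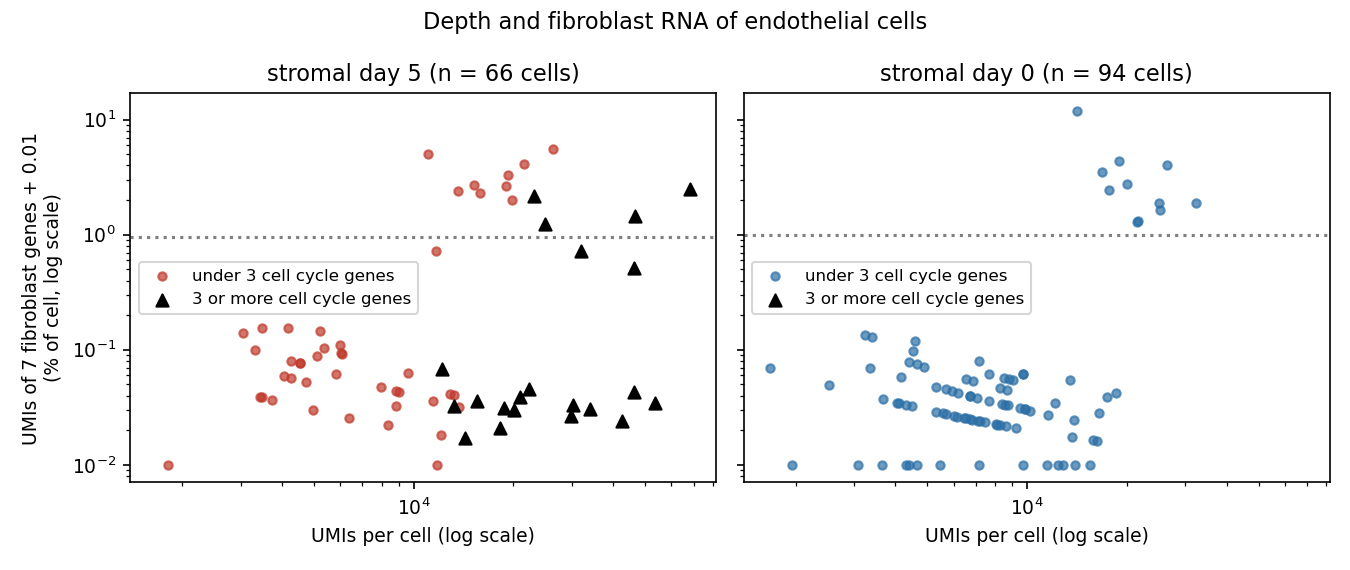
Each point is an endothelial cell, placed by its UMIs (horizontal axis, log scale) and by the percentage of its UMIs from 7 fibroblast genes (vertical axis, log scale, 0.01 added), for day 5 on the left and day 0 on the right. Points above the dotted line are mixed droplets, 13 at day 5 and 11 at day 0, and black triangles are the 21 cells with at least 3 cell cycle genes, which occur at day 5 and lie at 12166 UMIs or more.

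Ccnb2, the cyclin B2 of mitotic entry, had 96 UMIs in 14 cells at day 5 and none at day 0. Against a floor of 3 UMIs for day 0, that is at least 27.4-fold higher at day 5. Birc5, the survivin of the chromosomal passenger complex, had 95 UMIs in 13 cells and Mki67, which encodes the Ki-67 antigen, 50 UMIs in 9 cells, again with none at day 0, at least 27.1-fold and 14.3-fold higher. All 3 were at 0 in the other 45 day 5 cells. Mcm5, a subunit of the replicative helicase, had 33 UMIs in 15 cells at day 5 and 4 UMIs in 4 cells at day 0, a CPM ratio of 7.06 (2.51 to 27.4). Pcna, the sliding clamp of DNA polymerase, had 70.3 CPM at day 5 and 74.3 CPM at day 0, close to 1 at 0.946 (0.669 to 1.34). So 8 of the 9 list genes with at least 20 UMIs were at least 2-fold higher at day 5 and Pcna was within 2-fold. These genes defined the subset, so their confinement to it is a description.

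The Ccnb2 window is shown for the letters TTTGAA of the cell cycle genes homology region, a promoter element of many G2 and M phase genes. It lies at chr9:70421555-70421804 on the minus strand of GRCm38.p6 (RefSeq) and is written 5′ to 3′ in the direction of the gene, with the match in capitals 167 bases before the start.
Ccnb2: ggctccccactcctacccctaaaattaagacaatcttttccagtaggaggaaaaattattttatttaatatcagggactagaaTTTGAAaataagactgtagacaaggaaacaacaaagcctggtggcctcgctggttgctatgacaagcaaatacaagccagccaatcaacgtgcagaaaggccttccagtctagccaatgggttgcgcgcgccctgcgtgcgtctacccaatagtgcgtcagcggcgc
The letters, on either strand, were in 4 of the 12 list genes (Ccnb2, Cdk1, Mki67 and Top2a) and in 16.0% of all windows.

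Across all 8593 genes with at least 20 UMIs over both days, 668 (7.77%) were at least 2-fold higher at day 5 and 668 (7.77%) at least 2-fold lower, with a median ratio of 0.966. Without the cell-cycle subset 7341 genes remained, of which 294 (4.00%) were 2-fold higher and 402 (5.48%) 2-fold lower. Without mixed droplets the counts were 753 (10.3%) and 758 (10.4%) of 7284. Ratios without the subset are given beside most of the genes below. Within day 5, the subset against the other 45 cells had 774 (11.9%) of 6496 genes 2-fold higher and 897 (13.8%) 2-fold lower.

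The 12 genes with the largest ratio at day 5 were AA467197, Cdca8, Akr1b8, Csf3, Stmn1, Ccnb2, Birc5, Mest, Cks2, Marcksl1, Hmmr and Prnd, out of 214 that met the criteria for naming. Cdca8, the borealin partner of survivin, Cks2, a binding partner of cyclin-dependent kinases, and Hmmr, a spindle-associated hyaluronan receptor, belong with mitosis. Cks2 had 120.4 CPM at day 5 and 5.63 CPM at day 0, a ratio of 21.4 (8.92 to 67.0), and 1.31 (0.204 to 6.76) without the subset. Akr1b8, an aldo-keto reductase, had 182 UMIs in 22 cells at day 5 and 5 UMIs in 4 cells at day 0, with a ratio of 31.1 (13.1 to 97.1), 1.75 (0.348 to 8.15) without the subset and 142 without mixed droplets, where 1 UMI was left at day 0. Prnd, the prion-like protein doppel, had 113 UMIs in 12 cells at day 5 and 7 UMIs in 7 cells at day 0, with a ratio of 13.8 (6.49 to 35.1), and 112 of its 113 day 5 UMIs lay in the cell-cycle subset. Without the subset 9 of the 12 were below 2-fold or had too few UMIs for a ratio, and Prnd, with 1 UMI left at day 5, was at 0.313 (0.00695 to 2.44). The 3 that stayed were Marcksl1, Mest and Stmn1.

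Marcksl1, an actin-binding substrate of protein kinase C, had 122 UMIs in 31 cells at day 5 and 5 UMIs in 4 cells at day 0. Its ratio was 20.9 (8.70 to 65.4) in all endothelial cells and 12.7 (4.87 to 42.1) without the subset. Stmn1, which destabilizes microtubules, had 226 CPM at day 5 and 7.88 CPM at day 0, a ratio of 28.7 (13.7 to 72.2), and 3.76 (1.36 to 11.3) without the subset. Mest, an imprinted gene of growing tissue, had 197 CPM at day 5 and 7.88 CPM at day 0, a ratio of 24.9 (11.9 to 62.8), and 4.38 (1.66 to 12.8) without it. Outside the subset 1 day 5 droplet held 7 of the 14 UMIs of Mest and 5 of the 12 of Stmn1, and without the leading droplet of each day their ratios were 3.94 (1.00 to 18.3) and 3.13 (0.856 to 12.5). With only the leading droplet of day 5 left out both ratios were 2.26. Of the 12 genes Marcksl1 was detected in most day 5 cells, in 19 of the 21 subset cells and 12 of the other 45.

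The 12 genes with the lowest ratio, out of 195 that met the criteria, were Timp4, Gbp4, Pdzd2, Rhobtb1, C1qtnf9, Iigp1, Cd24a, Cd36, Sult1a1, Tent5c, Ifi47 and Rasa4. Of them, 11 kept a ratio of 0.5 or less without the cell-cycle subset, the exception being the sulfotransferase Sult1a1 at 0.520 (0.345 to 0.765), and all 12 did so without mixed droplets. C1qtnf9, a secreted relative of adiponectin, had 46 UMIs in 23 cells at day 5 and 222 UMIs in 57 cells at day 0, a ratio of 0.177 (0.126 to 0.244) in all cells and 0.217 (0.133 to 0.337) without the subset. Timp4, an inhibitor of metalloproteinases, had 13 UMIs in 7 cells at day 5 and 82 UMIs in 18 cells at day 0, a ratio of 0.136 (0.0693 to 0.245) and 0.294 (0.141 to 0.554) without the subset. Rasa4, a Ras GTPase-activating protein, had 62 UMIs in 31 cells at day 5 and 229 UMIs in 62 cells at day 0, a ratio of 0.232 (0.172 to 0.308) and 0.412 (0.290 to 0.572) without the subset. Cd24a, a surface glycoprotein, had 68.4 CPM at day 5 and 342 CPM at day 0, of which 1 cell held 30.6% at day 0, and a ratio of 0.483 (0.365 to 0.631) without the subset.

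Capillary and lipid genes were mostly lower at day 5. Of 11 capillary genes, 7 were at least 2-fold lower at day 5 and none 2-fold higher, with a median log2 ratio of -1.68 against a median of -0.05 over all genes. Without mixed droplets 6 of 10 were lower, and without the cell-cycle subset 5 of 10, with medians of -1.34 and -1.12. Of the 10 lipid handling genes, 5 of which are also on the capillary list, 5 were 2-fold lower and none higher in all cells, and 5 of 9 without the subset.

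Fabp4 had 1461 CPM at day 5 and 4681 CPM at day 0, with a median of 515 and a highest value of 16055 CPM per cell at day 5, against 2433 and 38262 CPM at day 0. It was detected in 44 of 66 cells and 80 of 94, and its ratio was 0.312 (0.294 to 0.331). Without the cell-cycle subset the ratio was 0.227 (0.205 to 0.251), as the other 45 cells had 1064 CPM, below the 1715 CPM of the subset. Fibroblasts had 8.0 and 4.39 CPM. Cd36, the fatty acid translocase, was found in 18 cells at day 5 and 56 at day 0, with 95.4 CPM at day 5 and 465 CPM at day 0. Its ratio was 0.205 (0.163 to 0.256) in all cells and 0.228 (0.163 to 0.313) without the subset. Gpihbp1, which carries lipoprotein lipase to the lumen, had 154 CPM at day 5 and 365 CPM at day 0, a ratio of 0.422 (0.347 to 0.512) and 0.534 (0.412 to 0.685) without the subset. Tcf15, a transcription factor of fatty acid transport in heart and muscle capillaries, had 19 UMIs in 8 cells at day 5 and 56 UMIs in 30 cells at day 0, a ratio of 0.290 (0.163 to 0.496) and 0.352 (0.153 to 0.718) without the subset. Fabp4, Cd36, Gpihbp1 and Tcf15 were thus all lower at day 5, with Gpihbp1 just short of 2-fold once the subset or the mixed droplets were left out (0.505 for the second).

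Other capillary genes depended on the subset. Cd300lg, a mucin-like lipid receptor, had 125 CPM at day 5 and 442 CPM at day 0, a ratio of 0.284 (0.231 to 0.347), but 0.688 (0.557 to 0.844) without the subset, in which it was nearly absent (11.1 CPM in the cell-cycle subset and 304 CPM in the other day 5 cells). Rgcc, a regulator of the cell cycle abundant in capillaries, had a ratio of 0.608 (0.515 to 0.715) in all cells and 1.03 (0.849 to 1.24) without the subset. Aqp1, a water channel, was at 0.552 (0.490 to 0.621) and 0.741 (0.638 to 0.858). Car4, a carbonic anhydrase, had 25 UMIs at day 5, of which 15 lay in 1 droplet, and 18 at day 0.

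Among venous genes, 3 of 10 were at least 2-fold higher at day 5, none was 2-fold lower, and the median log2 ratio was 0.61. Without the cell-cycle subset 1 was higher and 1 lower, and the median was -0.27. Aplnr, the apelin receptor, had 368 CPM at day 5 and 131 CPM at day 0, in 32 and 43 cells, a ratio of 2.82 (2.28 to 3.5). Within day 5 it was at 561 CPM in the cell-cycle subset and 66.7 CPM in the other day 5 cells, where 20 of 21 and 12 of 45 cells had it, so that without the subset the ratio was 0.510 (0.322 to 0.781). Selp, the P-selectin, had 351 CPM at day 5 and 171 CPM at day 0, a ratio of 2.05 (1.69 to 2.49), and Sele, the E-selectin, had 181 CPM at day 5 and 64.2 CPM at day 0, a ratio of 2.82 (2.09 to 3.86). For both selectins, 1 droplet of the subset decides the value, with 211 of the 364 day 5 UMIs of Selp (58.0%) and 116 of the 188 of Sele (61.7%). With the leading droplet of each day left out the ratios were 1.00 and 1.65, and without the subset 0.461 (0.305 to 0.679) and 0.654 (0.356 to 1.14). Without mixed droplets they were 1.82 and 2.74.

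Ackr1, the atypical chemokine receptor of venules, had 161 CPM at day 5 and 104 CPM at day 0, in 12 and 20 cells, a ratio of 1.55 (1.20 to 2.03), and 2.22 (1.64 to 2.99) without the cell-cycle subset. Outside the subset 5 day 5 cells held its 93 UMIs, and 1 of them held 46 (49.5%). Without that droplet the ratio outside the subset was 1.16, and with the leading droplet of day 0 also left out 1.43 (0.967 to 2.08). In the venular cells described below it was 0.819. Lrg1, a secreted glycoprotein of venules, had 498 CPM at day 5 and 353 CPM at day 0 and a ratio of 1.41 (1.23 to 1.63), with 1.26 (1.04 to 1.52) without the subset. Nr2f2, the transcription factor of venous fate, was at 1.51 (1.12 to 2.04) and 1.82 (1.27 to 2.61). Without mixed droplets Nr2f2 was at 1.42 (1.00 to 2.03), and fibroblasts had 71.7 CPM of it at day 5 and 61.3 CPM at day 0. Vwf, the von Willebrand factor, had 77.1 CPM at day 5 and 133 CPM at day 0, a ratio of 0.580 (0.431 to 0.777), 0.706 (0.476 to 1.03) without the subset and 0.486 without mixed droplets. Plvap had 1649 CPM at day 5 and 2442 CPM at day 0, a ratio of 0.675 (0.633 to 0.720), and 0.779 (0.717 to 0.847) without the subset. The venous list therefore had no common direction.

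Arterial genes were few in UMIs. Of the 9 with at least 20, 2 were at least 2-fold higher, 2 at least 2-fold lower, and the median log2 ratio was -0.35, or 0.40 without the cell-cycle subset. Gja4, the connexin 37 of arteries, had 49 UMIs in 10 cells at day 5 and 15 UMIs in 7 cells at day 0, a ratio of 2.79 (1.54 to 5.37) and 5.11 (2.72 to 10.1) without the subset, where 1 droplet held 16 of its 35 day 5 UMIs. With the leading droplets of both days left out as well the ratio was 4.24 (1.88 to 10.2), and 2.86 with only that of day 5 left out. Stmn2, a stathmin, had 139 CPM at day 5 and 50.7 CPM at day 0, a ratio of 2.74 (1.95 to 3.92) and 1.61 (0.994 to 2.58) without it. Hey1, a Notch target of arterial fate, was detected with 13 UMIs in 10 cells at day 5 and 40 UMIs in 17 cells at day 0, a ratio of 0.278 (0.136 to 0.531) and 0.548 (0.244 to 1.11) without the subset. Sox17, an arterial transcription factor, had 109.8 CPM at day 5 and 178 CPM at day 0, a ratio of 0.617 (0.481 to 0.790), and 1.25 (0.953 to 1.63) without the subset, in which it was low (37.9 CPM in the cell-cycle subset and 222 CPM in the other day 5 cells).

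Tip and sprouting genes were higher in the sums at day 5, and this lay in the cell-cycle subset. Of 11 genes, 5 were at least 2-fold higher and Esm1 was at least 2-fold lower, with a median log2 ratio of 0.88. Without the subset 0 of 9 were past 2-fold in either direction, with a median of 0.23. Within day 5, 5 of 10 were at least 2-fold higher in the subset than in the other cells and 2 at least 2-fold lower. Apln, which encodes apelin, had 114 UMIs in 13 cells at day 5 and 12 UMIs in 5 cells at day 0, a ratio of 8.13 (4.48 to 16.2), and 111 of its 114 day 5 UMIs were in the subset. Angpt2, the Tie2 ligand angiopoietin 2, had 96.4 CPM at day 5 and 27.0 CPM at day 0, a ratio of 3.56 (2.26 to 5.82), with 137 CPM in the cell-cycle subset and 32.1 CPM in the other day 5 cells. Mcam, the adhesion molecule CD146, had 214 CPM at day 5 and 63.1 CPM at day 0, a ratio of 3.39 (2.52 to 4.63), and 1.17 (0.727 to 1.86) without the subset. Without the subset the ratio of Apln was 0.548 (0.0992 to 2.03) and that of Angpt2 1.19 (0.555 to 2.43), so all 3 intervals then included 1.

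Col4a1, a chain of the basement membrane collagen IV, was the most abundant gene of this list. It had 1357 CPM at day 5 and 508 CPM at day 0, with a median of 786 and a highest value of 3435 CPM per cell at day 5, against 511 and 2384 CPM at day 0. Its ratio was 2.67 (2.40 to 2.98) in all cells and 1.31 (1.12 to 1.53) without the cell-cycle subset, and it stood at 1799 CPM in the cell-cycle subset and 667 CPM in the other day 5 cells, a ratio of 2.70 (2.36 to 3.09). Col4a2, its partner chain, had a ratio of 1.84 (1.63 to 2.09) in all cells and 1.26 (1.06 to 1.49) without the subset. Both remained above 1 in each set of cells, but below 2-fold without the subset. Nid2, the basement membrane linker nidogen 2, had 84.8 CPM at day 5 and 29.3 CPM at day 0, a ratio of 2.90 (1.85 to 4.67), and 0.927 (0.414 to 1.94) without the subset. Esm1, endocan, a tip cell proteoglycan, ran against the others, with 125 CPM at day 5 and 448 CPM at day 0 and a ratio of 0.279 (0.227 to 0.341). It was in 3 of 21 subset cells and 16 of 45 other cells, and its ratio was 0.655 (0.529 to 0.806) without the subset and 0.180 without mixed droplets.

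**Figure D3:**
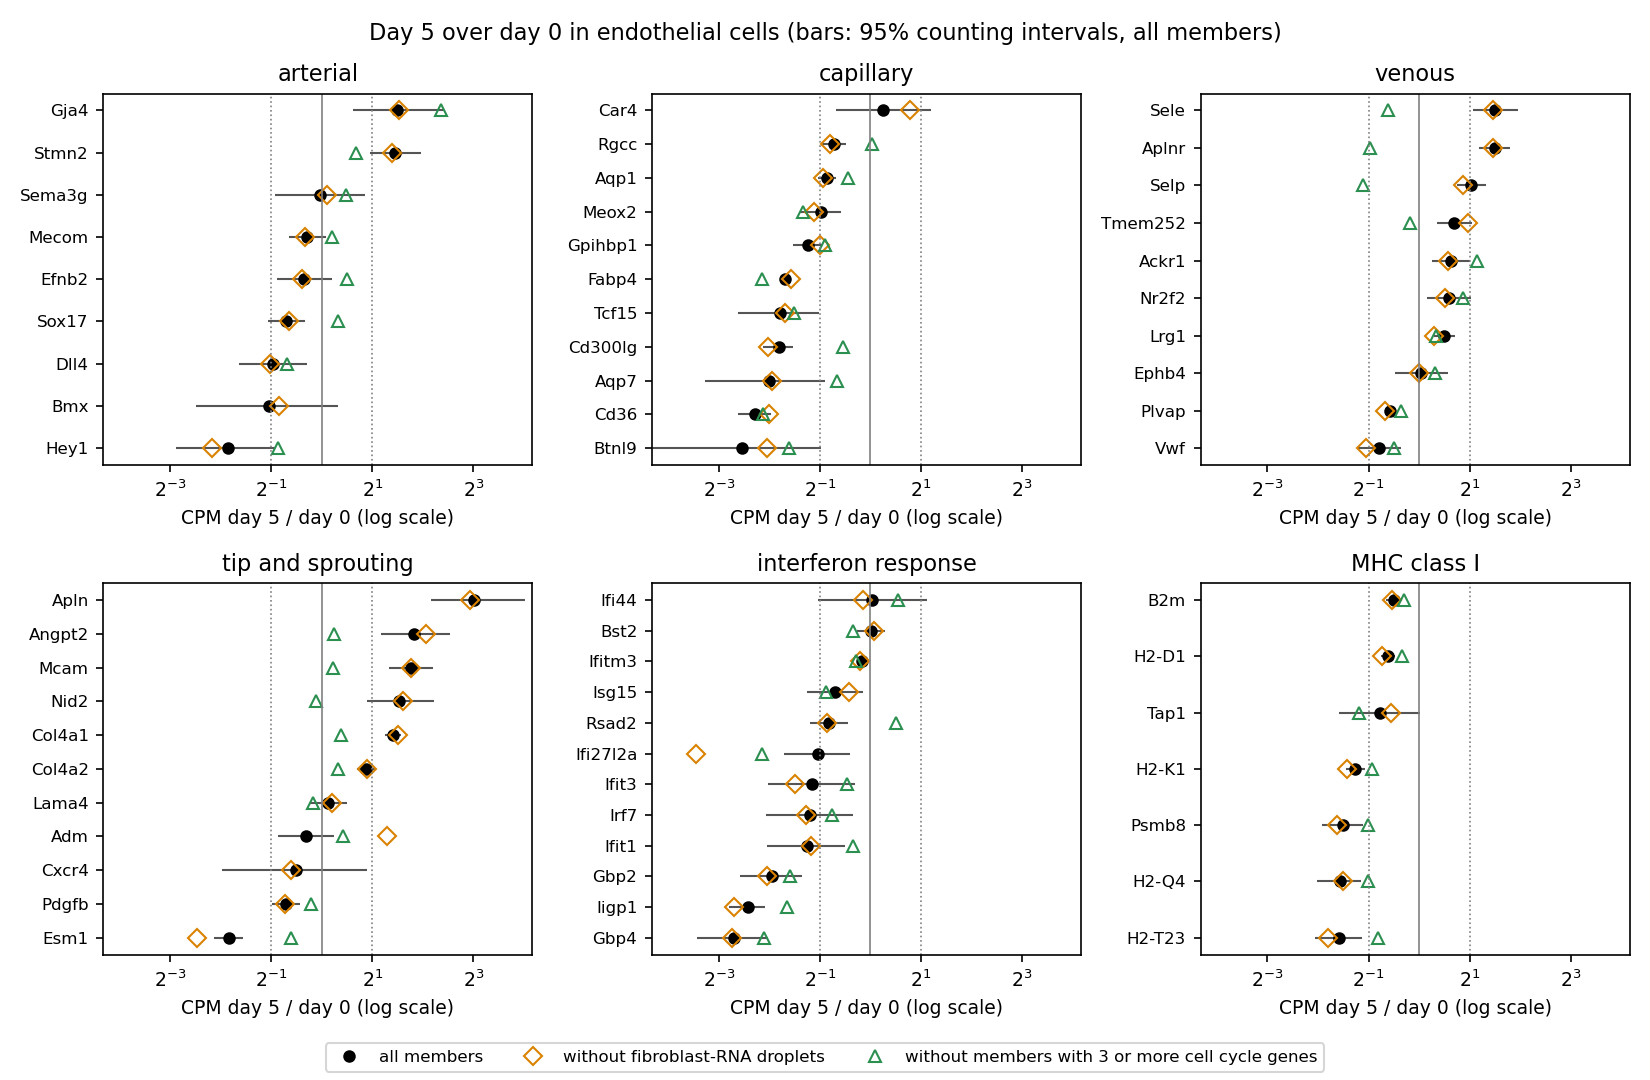
Ratio of CPM, day 5 over day 0 (horizontal axis, log scale), for genes of 6 lists with at least 20 UMIs, 12 of the 13 on the interferon list. Black points are all endothelial cells with 95% counting intervals, orange diamonds leave out the mixed droplets, green triangles leave out the 21 cells with at least 3 cell cycle genes, and dotted lines mark 2-fold either way. Capillary, interferon and MHC class I genes lie mostly left of 1 in all 3 sets, while the triangles of the tip and sprouting genes fall back between the dotted lines.

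Many interferon response genes were lower at day 5. Of 13 genes, 7 were at least 2-fold lower and none 2-fold higher, with a median log2 ratio of -1.04, also without mixed droplets (7 of 13, -1.18). Without the cell-cycle subset 4 of 13 were 2-fold lower and the median was -0.45. Iigp1, an immunity-related GTPase, had 78.0 CPM at day 5 and 420.1 CPM at day 0, with a median of 0 and a highest value of 1202 CPM per cell at day 5, against 257 and 3955 CPM at day 0. Its ratio was 0.186 (0.144 to 0.237) in all cells and 0.317 (0.234 to 0.423) without the subset. Gbp4, a guanylate-binding protein, had 22 UMIs in 15 cells at day 5 and 122 UMIs in 49 cells at day 0, a ratio of 0.154 (0.0932 to 0.244) and 0.234 (0.121 to 0.414) without the subset, and Gbp2 had 30 UMIs in 20 cells at day 5 and 99 UMIs in 41 cells at day 0, a ratio of 0.259 (0.166 to 0.393) and 0.332 (0.179 to 0.575). Ifi47, an inducible GTPase outside the list, had 12 UMIs in 10 cells at day 5 and 45 UMIs in 27 cells at day 0, a ratio of 0.228 (0.110 to 0.438) and 0.390 (0.159 to 0.835) without the subset. In fibroblasts Gbp2 had 28.1 CPM at day 5 and 23.4 CPM at day 0.

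Not every interferon gene followed. Rsad2, the antiviral enzyme viperin, was lower in all cells at 0.568 (0.436 to 0.738) but higher without the subset at 1.43 (1.09 to 1.85). Bst2, the antiviral protein tetherin, was at 1.00 (0.831 to 1.22) and 0.787 (0.595 to 1.03) without the subset. The membrane protein Ifitm3, the most abundant of the list, was at 0.891 (0.839 to 0.948) and 0.822 (0.756 to 0.894). The GTPases Iigp1, Gbp4 and Gbp2 were therefore lower in each set of cells, while the list as a whole was not uniform.

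The Gbp2 window is shown for a core of the interferon-stimulated response element, bound by interferon regulatory factors. It lies at chr3:142620413-142620662 on the plus strand of GRCm38.p6 (RefSeq) and reads 5′ to 3′, with the match, which is on the opposite strand, in capitals at 59 bases before the start.
Gbp2: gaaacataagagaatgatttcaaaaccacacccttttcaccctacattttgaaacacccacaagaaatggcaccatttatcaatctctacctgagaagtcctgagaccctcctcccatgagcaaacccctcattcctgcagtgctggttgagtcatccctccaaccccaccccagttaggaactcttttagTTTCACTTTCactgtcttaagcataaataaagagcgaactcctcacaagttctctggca
Of the 13 list genes 9 had a window, and 6 of them held this core on either strand (Bst2, Gbp2, Ifit1, Ifit3, Isg15 and Rsad2), against 2.98% of all windows. Bst2 and Rsad2 are among these and were not lower at day 5 in each set of cells.

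MHC class I genes, which display peptides to CD8 T cells, were lower as well. Of 7 genes, 4 were at least 2-fold lower and none higher, with a median log2 ratio of -1.26 in all cells, -1.43 without mixed droplets and -0.93 without the cell-cycle subset, where 3 of 7 were 2-fold lower. H2-K1, a heavy chain, had 347 CPM at day 5 and 830.1 CPM at day 0, with a median of 265 and a highest value of 2145 CPM per cell at day 5, against 689 and 3488 CPM at day 0. Its ratio was 0.418 (0.367 to 0.475) and 0.523 (0.441 to 0.618) without the subset. H2-D1 was at 0.654 (0.595 to 0.719), B2m, the shared light chain, at 0.708 (0.637 to 0.788), and the immunoproteasome subunit Psmb8 at 0.351 (0.262 to 0.465). Without the subset H2-D1 was at 0.794 (0.703 to 0.896), B2m at 0.810 (0.705 to 0.929) and Psmb8 at 0.494 (0.340 to 0.703). All 7 ratios were below 1 in all cells. None of the MHC class II genes listed had 20 UMIs.

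Inflammatory genes had 7 of 16 at least 2-fold higher and none 2-fold lower, with a median log2 ratio of 0.45. Without the cell-cycle subset 3 of 10 were higher and none lower, with a median of 0.32. For 5 of the 7 (Ccl2, Ccl7, Il6, Lcn2 and Fgl2) the fibroblasts of day 5 had a higher CPM, and for Csf3 1 droplet held most UMIs. The other was Ch25h, a cholesterol hydroxylase, with 38 UMIs in 15 cells at day 5 and 10 UMIs in 7 cells at day 0 and a ratio of 1.31 (0.393 to 3.99) without the subset. Csf3, the granulocyte colony-stimulating factor, had 102 UMIs at day 5, of which 86 (84.3%) lay in 1 droplet, and none at day 0. That droplet, of 29771 UMIs, is the one that led Selp and Sele. Ccl2, a monocyte chemokine, had 153 UMIs at day 5, of which 134 (87.6%) lay in another droplet of 46113 UMIs, and 5 at day 0. Neither droplet was mixed, neither was the one with most UMIs, and both were in the cell-cycle subset. Il6 had 48 UMIs in 15 cells at day 5 and 3 UMIs in 3 cells at day 0, with 53.0 and 33.2 CPM in fibroblasts.

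Lcn2 and Fgl2 were higher at day 5 mainly outside the subset, which held 12 and 14 of their day 5 UMIs. Lcn2, the iron-binding lipocalin, had 74 UMIs in 8 cells at day 5 and 7 UMIs in 6 cells at day 0, a ratio of 9.04 (4.18 to 23.3) and 19.4 (8.88 to 50.3) without the subset. Outside the subset 5 day 5 cells held its UMIs, 26 of 62 in 1 of them. With the leading droplets of both days left out the ratio was 15.4 (6.01 to 50.1), and 11.4 with only that of day 5 left out. Fibroblasts had more of it, 294 CPM at day 5 and 44.1 CPM at day 0. Fgl2, a membrane prothrombinase, had 79 UMIs in 18 cells at day 5 and 14 UMIs in 7 cells at day 0, a ratio of 4.83 (2.71 to 9.23) and 10.2 (5.65 to 19.6) without the subset, with 297 and 242 CPM in fibroblasts. The part of free RNA in these values was not tested. The regulators Nfkbia and Socs3 were at 0.913 (0.818 to 1.02) and 0.951 (0.824 to 1.10), and at 0.928 (0.801 to 1.07) and 1.24 (1.04 to 1.47) without the subset. For a core of the kappa B site, 8 of 14 list genes with a window had a match on either strand, against 4.65% of all windows.

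Icam1, the ligand of leukocyte integrins, had 188 CPM at day 5 and 258 CPM at day 0, a ratio of 0.728 (0.599 to 0.886), and 0.680 (0.513 to 0.890) without the subset. Vcam1, another integrin ligand, had 44.3 CPM at day 5 and 41.7 CPM at day 0, a ratio of 1.06 (0.675 to 1.69), with 121 and 80.7 CPM in fibroblasts. The Vcam1 ratio was 2.10 without mixed droplets and 0.533 (0.226 to 1.12) without the cell-cycle subset. Of 9 adhesion genes 2 were 2-fold higher (the selectins), and Jam2, a junctional adhesion molecule, was 2-fold lower at 0.467 (0.383 to 0.568), with a list median log2 ratio of 0.09. Without the subset 1 was 2-fold higher, Ackr1, where 1 droplet held 46 of 93 UMIs, and 1 was 2-fold lower, Selp, with a median of -0.56, and Jam2 was at 0.661 (0.516 to 0.841).

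Of the receptors 15 of 18 and of the transcription factors 15 of 16 were within 2-fold, and of the junction genes 6 of 12. Over all 8593 genes 7.77% were at least 2-fold higher and 7.77% lower, so the receptor and transcription factor counts were near the general share. Of 12 junction genes 5 were at least 2-fold lower in all cells and Gja1, the connexin 43, was 2-fold higher at 2.68 (2.13 to 3.39), with none past 2-fold without the cell-cycle subset, where Gja1 was at 1.44 (1.04 to 1.99). Ptprb, the phosphatase that restrains Tie2 and VE-cadherin signalling, had 298 CPM at day 5 and 782 CPM at day 0, a ratio of 0.381 (0.332 to 0.436) and 0.654 (0.557 to 0.765) without the subset. Of 16 transcription factors 1 was 2-fold lower, Mef2c, with 609.9 CPM at day 5 and 1319 CPM at day 0. Mef2c was at 182 CPM in the cell-cycle subset and 1279 CPM in the other day 5 cells, and its ratio without the subset was 0.970 (0.873 to 1.08). Klf2 and Klf4, factors induced by laminar flow, were at 0.708 (0.649 to 0.773) and 0.581 (0.527 to 0.641) in all cells and 1.23 (1.11 to 1.35) and 1.03 (0.923 to 1.15) without the subset. Of 18 angiogenic and TGF-beta family receptors 1 was 2-fold higher (Aplnr) and 2 lower (the scavenging receptor Ackr3 and Adgrl4). Without the subset 1 was 2-fold higher, the VEGF receptor 3 gene Flt4 at 2.80 (1.45 to 5.51), and none was 2-fold lower, with Aplnr at 0.510, Ackr3 at 0.553 and Adgrl4 at 0.718. Outside the subset 1 droplet, which also led the lymphatic gene Mmrn1, held 6 of the 23 day 5 UMIs of Flt4. With the leading droplet of each day left out the Flt4 ratio was 2.32 (1.10 to 4.91), and 2.10 with only that of day 5 left out. Nrp1, a VEGF co-receptor, was at 0.546 (0.480 to 0.619) in all cells, 0.984 (0.852 to 1.13) without the subset and 0.427 without mixed droplets. For Klf2, Klf4, Mef2c and Nrp1, the 45 cells outside the subset, 9 of them mixed droplets, were thus near or above the day 0 level.

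Genes of coagulation and vessel tone had 3 of 11 at least 2-fold higher (Procr, Tfpi and Nos3) and 1 lower (Ptgis), and 0 of 11 past 2-fold without the subset. Procr, the endothelial protein C receptor, had 96.4 CPM at day 5 and 36.0 CPM at day 0, a ratio of 2.67 (1.78 to 4.12) and 1.16 (0.606 to 2.16) without the subset. Nos3, the endothelial nitric oxide synthase, had 89.6 CPM at day 5 and 39.4 CPM at day 0, a ratio of 2.27 (1.53 to 3.46) and 1.57 (0.898 to 2.69). Immediate early genes, which dissociation at warm temperature is known to raise, had 0 of 14 higher and 1 lower, with a median log2 ratio of -0.29 in all cells and 0.39 without the subset. Within day 5, 8 of the 14 were at least 2-fold lower in the subset, Egr1 at 403 CPM in the cell-cycle subset and 1513 CPM in the other day 5 cells and Fos at 1498 CPM in the cell-cycle subset and 4149.8 CPM in the other day 5 cells.

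**Figure D4:**
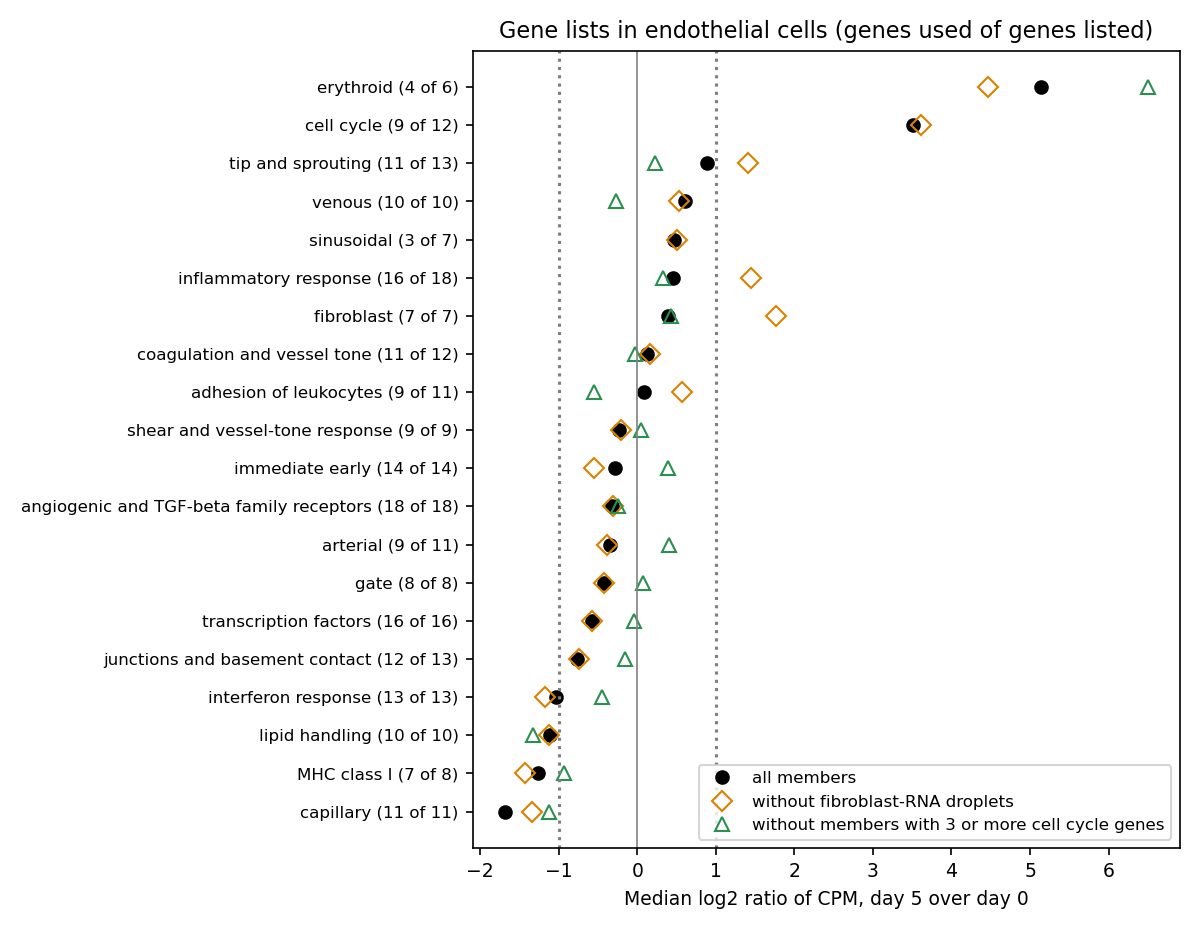
Median log2 ratio of CPM, day 5 over day 0 (horizontal axis), for each gene list with at least 3 genes of 20 UMIs, both in all cells and without mixed droplets (rows, with genes used of genes listed). The lymphatic, leukocyte, tenocyte and osteoblast lists had fewer without mixed droplets and are not shown. Black points are all endothelial cells, orange diamonds leave out mixed droplets, green triangles leave out the 21 cells with at least 3 cell cycle genes, and dotted lines mark 2-fold. Capillary, lipid and MHC class I medians lie at or beyond -0.93 in all 3 sets, several medians nearer 0, among them the venous, arterial, adhesion and immediate early ones, change sign without the 21 cells, and the erythroid points rest on 1 droplet.

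Vessel-type genes did not sort the cells into clean classes. At least 2 arterial genes were seen in 53 of 66 cells (80.3%) at day 5 and 72 of 94 (76.6%) at day 0, at least 2 capillary genes in 61 (92.4%) and 92 (97.9%), and at least 2 venous genes in 57 (86.4%) and 82 (87.2%). All 3 lists were met by 44 cells at day 5 and 60 at day 0, and no cell met none. In fibroblasts the same shares were 7.65, 27.8 and 14.7% at day 5 and 8.85, 35.6 and 14.2% at day 0. After thinning to 1000 UMIs, 2 capillary genes were seen in 31.8% of cells at day 5 and 64.9% at day 0, 2 venous genes in 45.5% and 41.5%, and 2 arterial genes in 15.2% and 13.8%. At equal depth the capillary share was therefore the one that differed most between the days. That share follows the level of the listed genes and does not count capillary cells. Fabp4 alone was seen in 45.5% of thinned cells at day 5 and 64.9% at day 0.

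A venular set stood out by the joint presence of Ackr1, Selp and Sele, a division chosen after the data were seen. At least 2 of the 3 genes were in 16 of 66 cells (24.2%, median 22651.5 UMIs) at day 5 and 18 of 94 (19.1%, median 7343.5) at day 0, and 11 of the 16 belonged to the cell-cycle subset. In these cells, called venular here, Lrg1 had 906 CPM at day 5 and 1101 CPM at day 0, against 234 and 149 CPM in cells with none of the 3. Cldn5 was low in the venular cells, at 12.2 and 74.2 CPM, against 588 and 557 CPM in the cells with none. Gpihbp1 was at 44.1 and 5.70 CPM in the venular cells, against 242 and 473 CPM. Aqp1, also on the capillary list, went the other way, at 774 and 1614 CPM in the venular cells, against 252 and 550 CPM. Cells with none of the 3 genes were 69.7% of endothelial cells at day 5 and 70.2% at day 0.

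Some differences between days were present on both sides of that division. Fabp4 had 1722 CPM at day 5 and 4199 CPM at day 0 in the venular cells, and 1299 and 4361 CPM in the cells with none, ratios of 0.410 and 0.298. Iigp1 had ratios of 0.181 and 0.225, H2-K1 0.472 and 0.480, and C1qtnf9 0.0941 and 0.208. Col4a1 had 1626 CPM at day 5 and 205 CPM at day 0 in the venular cells, a ratio of 7.92, and 1.73 in the cells with none. At day 5, 11 of the 16 venular cells and 7 of the 46 with none belonged to the cell-cycle subset, against 0 at day 0. Col4a1 was higher in that subset (1799 against 667 CPM), so its ratio in venular cells cannot be told apart from the share of subset cells.

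**Figure D5:**
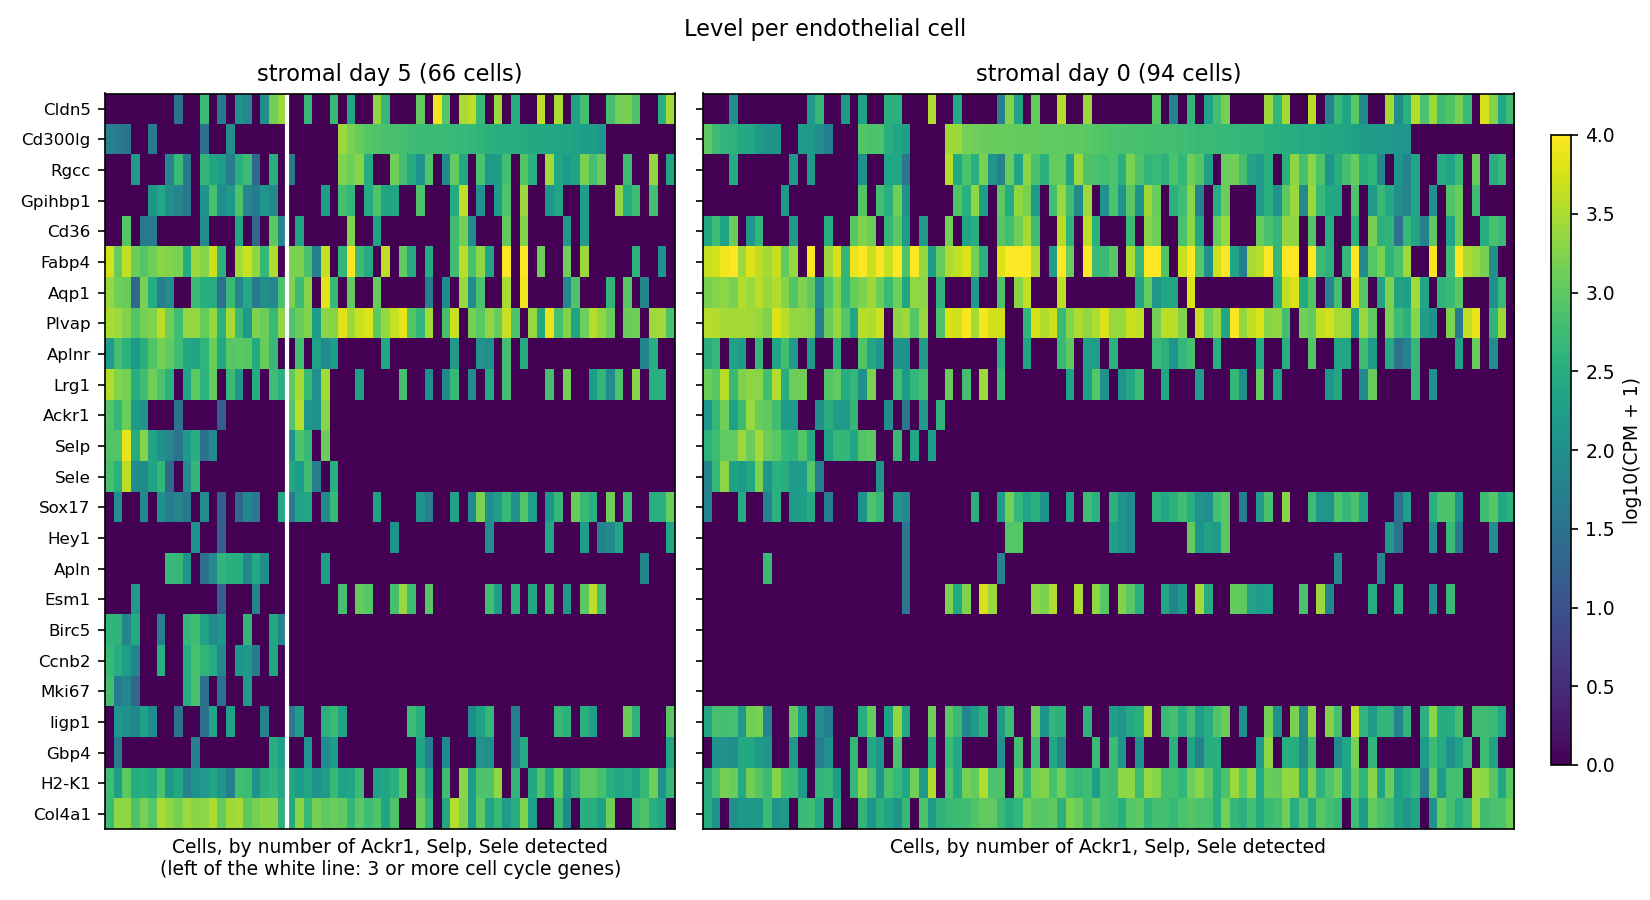
Level of 24 genes (rows) in each endothelial cell (columns) as log10(CPM + 1), with colours cut at 4, for day 5 on the left and day 0 on the right. Cells are ordered by the number of Ackr1, Selp and Sele detected and then by Cd300lg, and the 21 day 5 cells with at least 3 cell cycle genes stand left of the white line. Aplnr, Apln and Col4a1 are strong left of the line where Cd300lg, Esm1 and Sox17 are weak, and Iigp1 is seen in 28 of 66 cells at day 5 and 67 of 94 at day 0, Gbp4 in 15 and 49.

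Inside day 5, the cell-cycle subset and the other cells all carried at least 4 of the 8 endothelial genes, as the rule asks. Pecam1 was at 865 CPM in the cell-cycle subset and 916 CPM in the other day 5 cells, Egfl7 at 901 CPM in the cell-cycle subset and 871 CPM in the other day 5 cells and Emcn at 473 CPM in the cell-cycle subset and 553 CPM in the other day 5 cells. The VEGF receptor Kdr was lower in the subset, at 313 CPM in the cell-cycle subset and 743 CPM in the other day 5 cells, a ratio of 0.421 (0.350 to 0.506), as were Cldn5 at 139 CPM in the cell-cycle subset and 595 CPM in the other day 5 cells and Flt1 at 438 CPM in the cell-cycle subset and 780.1 CPM in the other day 5 cells. Of the leading genes outside the rule, Ptprb was at 161 CPM in the cell-cycle subset and 511 CPM in the other day 5 cells, a ratio of 0.315 (0.246 to 0.402), Adgrl4 at 188 CPM in the cell-cycle subset and 388 CPM in the other day 5 cells, a ratio of 0.485 (0.379 to 0.620), and Plvap and Cd93 at ratios of 0.781 (0.709 to 0.860) and 0.798 (0.678 to 0.942). Higher in the subset, beside the cell cycle genes, were Aplnr with a ratio of 8.42 (5.69 to 13.0), Col4a1 with 2.70 (2.36 to 3.09), Gja1 with 2.41 (1.83 to 3.22) and Tmem252, of the venous list, with 2.37 (1.69 to 3.39). Mitochondrial UMIs were at a median of 4.05% in the subset and 3.35% in the other cells. Because the subset was taken from the same cells, these are descriptions.

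With the droplet of most UMIs of each day left out, the counts of genes past 2-fold were 663 higher and 652 lower. What 1 droplet carried was seen when the droplet leading each gene was left out. Beside Csf3, Ccl2, Selp and Sele, single day 5 droplets, a different one for each gene, held 66.1% of Hmmr, 60.8% of the lymphatic gene Lyve1 and 51.7% of Mmrn1, a lymphatic multimerin, and 97.9% of Hbb-bs, a beta globin. At day 0, 1 mixed droplet held 98.3% of Ibsp, a bone sialoprotein, and 1 held 8 of the 12 UMIs of Apln. Without the leading droplets, Apln had 87.7 CPM at day 5 and 4.59 CPM at day 0, a ratio of 19.1 with 4 UMIs left at day 0. Its direction thus did not rest on these droplets. It did rest on the cell-cycle subset, without which the ratio was 0.548 (0.0992 to 2.03).

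Lymphatic genes were present although Prox1 had been required at 0. At day 5, 3 of 66 cells had at least 2 of Lyve1, Mmrn1, Reln and Nts, with 34, 29, 11 and 19 UMIs, against 0 of 94 at day 0. All 3 had no UMI of Flt1, and the one leading Lyve1, with 31 of its 4058 UMIs, had none of Cdh5 or Plvap. Whether they are lymphatic cells in which Prox1 was missed was not tested, and the rule kept them among the 66. Of the cells with at least 4 of the 8 endothelial genes and a UMI of Prox1 but no Ptprc, 3 of 4 at day 5 and 5 of 10 at day 0 met that criterion. Of the 9 leukocyte genes listed, 3 had 20 UMIs, and the list summed to 61.7 CPM at day 5 and 21.4 CPM at day 0, with 12 cells carrying any on each day and Ptprc at 0 by the rule. Of 9 mural genes, which mark pericytes and smooth muscle, 3 were at 0 on each day and the list summed to 53.0 and 48.4 CPM, against 202 and 204 CPM in fibroblasts. The 7 fibroblast genes summed to 9093 CPM at day 5 and 8252 CPM at day 0 in endothelial cells. Without mixed droplets they summed to 1034 and 242 CPM, against 42944 and 46047 CPM in fibroblasts. Their part in the differences was not tested beyond the values without mixed droplets.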

How the data were processed

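The libraries were made with the 10x Chromium 3′ v3.1 kit. The authors deposited UMI counts per gene and cell, and the file headers name Cell Ranger 6.0.1 as their source. Alignment used the pre-built 10x mm10 reference, per the labels' protocols. Seurat 4.3.0 is named in the submitters' processing notes, without its role. Raw reads were not analysed here.

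Cells were filtered and chosen as stated above. UMIs were summed per day and divided by the summed total to give CPM. Cells are not replicates, so with 1 library per day there was no p-value, and edgeR and DESeq2 gave scaling factors only. Shares have Clopper-Pearson intervals and ratios exact conditional binomial intervals, at 95%. Genes needed 20 UMIs over both days. A count of 0 was given a floor of 3 for the bound. Named genes had at least 50 UMIs over both days, and 50 CPM and 5 cells in the higher day, a level above that of fibroblasts, and 2-fold without the droplet of most UMIs. Mitochondrial, ribosomal protein, globin, antigen receptor, predicted and sex-linked genes were left out, and the 12 largest ratios each way were taken. The genes leading by fold are the 15 with the largest fold over other cells. Genes from 29 lists are examples, and some list genes that are in the counts are not reported here by name. No doublet caller was run, and mixed droplets stand in for doublets of endothelial cells and fibroblasts. Members and lists were chosen with earlier results of these data known, and the cell-cycle subset, the venular division and the droplet leading each gene after the data were seen. Python 3.11.15, scipy 1.17.1, R 4.3.3, edgeR 4.0.16 and DESeq2 1.42.0 were used. Tested on simulated sums of 8593 genes for day 5 against day 0, the true ratio lay in the interval for 8099 of 8393 unchanged genes, 97 of 100 at 2-fold and 48 of 50 at 4-fold. The simulated sums had counting error only, as the intervals assume. Such coverage was therefore built in and checks the calculation, not the spread between cells or libraries. Promoter windows came from RefSeq by gene symbol. A list gene was counted once if any of its windows had a match, while the share beside it is of single windows. The units are therefore unlike.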

Additional observations from a re-analysis of the deposited data

Results flagged for a closer look

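In the myeloid library of day 9, sorted for CD45 and CD11b and against Ly6G, 36 of 5945 passing cells had at least 4 of the 8 endothelial genes. That is 0.606% (0.424 to 0.837%), above the 0.0505% that a floor of 3 cells gives, and of that library only the number of passing cells is used above. Of the 36, 27 had 7 or 8 of the genes and 31 had UMIs of Ptprc, so 5 met the whole rule. Their median was 11944.5 UMIs, against 6709 in the other cells. Fabp4 was at 5057 CPM in these cells and 11.3 CPM in the others, Plvap at 707 and 1.87 CPM, the myeloid gene Lyz2 at 7291 and 4847 CPM and Tyrobp, an adaptor of myeloid receptors, at 1202 and 1863 CPM. The part of droplets with RNA of more than 1 cell was not tested.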

How the results depend on the processing

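The number of genes at least 2-fold higher and lower at day 5 was 668 each of 8593. It became 294 and 402 of 7341 without the cell-cycle subset and 406 and 424 of 6925 in cells with none of Ackr1, Selp and Sele. With cells thinned to 1000 UMIs it was 93 and 100 of 1330. With no minimum and 0.5 added there were 2272 and 2340 of 14610 genes. Under the other 15 alternatives both counts stayed within 1.5 times, but the number of genes used differed. In venular cells alone 727 and 534 of 4466 genes were past 2-fold, a larger share than in all cells. With edgeR TMM scaling 750 were higher and 592 lower, and with DESeq2 median-of-ratios 753 and 589. The endothelial share at day 5 was 0.403% without the subset, by construction. Thinning took the arterial, capillary and venous shares to 15.2, 31.8 and 45.5% at day 5 and 13.8, 64.9 and 41.5% at day 0. Without the subset 22 of 102 gene ratios and 8 of 24 list medians changed sign. Those at least 2-fold in all cells were the log2 ratios of Prnd (-1.68), Selp (-1.12), Sele (-0.61), Aplnr (-0.97), Apln (-0.87), Nid2 (-0.11) and Tfpi (-0.19). In venular cells alone, which are 16 and 18 cells, 10 of 106 gene ratios and 2 of 22 list medians changed sign, with a floor of 3 UMIs for a count of 0. Those at least 2-fold in all cells were Gpihbp1 (2.95), Esm1 (0.0026), Fgl2 (-1.63), Ccl2 (-0.48), Jam3 (0.10) and the osteoblast list median (3.66). The values of Esm1 and Ccl2 are bounds against that floor and not measured ratios. In venular cells Esm1 had 7 UMIs and Ccl2 12.2 CPM at day 5, and both had none at day 0, so the sign of Ccl2 comes from the floor. Without the droplet leading each gene the leukocyte and erythroid list medians, at least 2-fold in all cells, turned to -0.18 and -0.23. The cause was not tested. No paired analysis was possible because each day has 1 library.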
